A study of Mus musculus with 12 samples.

Results

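The genes described here encode intermediate filament proteins: *Gfap* and vimentin (*Vim*), nestin (*Nes*) and synemin (*Synm*), desmin (*Des*), and the nuclear lamins *Lmna* and *Lmnb1*. They were taken by gene symbol from a table of raw counts for 18903 genes. Of the 7 genes named, 6 were found, and all 6 passed the filter on low counts. *Des* was not analysed here.

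RNA-seq was performed on primary astrocytes cultured from mouse brain at P1, P6 and P8, in WT and *Rack7*-cKO mice, with 2 libraries labelled as biological repeats in each of 6 groups and 12 libraries in all. The study asked how loss of *Rack7*, also called *Zmynd8*, alters transcription as astrocytes develop. WT cultures came from hGFAP-cre::*Rack7* +/+ mice and cKO cultures from hGFAP-cre::*Rack7* fl/fl mice at each of the 3 ages, so both genotypes carried Cre under a human *GFAP* promoter, a promoter of the same gene as the first member described here. Brain tissue freed of meninges was grown in astrocyte medium, and the plates were shaken to remove microglia and oligodendrocytes before further growth. P1, P6 and P8 therefore name the age of the mouse when the culture was started and not the age of the cells when RNA was taken. The sources used here do not give the number of animals behind a culture.

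Intermediate filaments are the rope-like part of the cytoskeleton that gives cells resistance to stretch. Vimentin and nestin are typical of neural progenitors and immature astrocytes, while glial fibrillary acidic protein accumulates as astrocytes mature and when they react to injury. Synemin joins filaments built by other members, and the lamins form the meshwork under the inner nuclear membrane, with A-type lamins rising in stiff or differentiated tissues and B-type lamins present in nearly all cells.

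Libraries held between 54413504 and 89183250 counts. Levels are given as CPM, counts scaled to a common library size and composition, and levels compared between genes as RPKM, which also divides by the exonic length. Whole-gene counts of *Zmynd8* were higher in libraries labelled cKO at every age, with group means (n = 2) of 214 and 136 CPM in cKO and WT at P1, 236 and 115 CPM at P6, then 166 and 102 CPM at P8. A count over the whole gene does not test the floxed exons, and it does not show the loss that the cKO label names, so groups are given as libraries labelled WT or cKO throughout. The 10 astrocyte markers measured were above 1 CPM in every group, but microglia markers summed to 2639 to 5393 CPM and fibroblast markers to between 384 and 26290 CPM, against 802 to 2188 CPM for the astrocyte markers. In such bulk samples fewer cells of a type and less RNA per cell cannot be told apart.

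The stretches upstream of *Gfap* and *Nes* are shown because these genes differed in opposite directions between libraries labelled cKO and WT at P8. They are the 250 bases before the RefSeq start site, on the GRCm38.p6 build, written in the direction of the gene, at chr11:102897201-102897450 on the minus strand for *Gfap* and chr3:87970843-87971092 on the plus strand for *Nes*. The *Gfap* window lies inside the gene span given below, which reaches further upstream than this start site. The *Nes* window runs into the start of the span given below for *Nes*. Capitals mark matches to 6 short motifs searched on both strands.
Gfap: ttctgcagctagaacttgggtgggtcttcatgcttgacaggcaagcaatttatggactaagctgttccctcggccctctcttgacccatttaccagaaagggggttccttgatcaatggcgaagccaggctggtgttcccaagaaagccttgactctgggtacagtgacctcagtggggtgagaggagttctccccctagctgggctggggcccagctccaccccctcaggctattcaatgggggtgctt
Nes: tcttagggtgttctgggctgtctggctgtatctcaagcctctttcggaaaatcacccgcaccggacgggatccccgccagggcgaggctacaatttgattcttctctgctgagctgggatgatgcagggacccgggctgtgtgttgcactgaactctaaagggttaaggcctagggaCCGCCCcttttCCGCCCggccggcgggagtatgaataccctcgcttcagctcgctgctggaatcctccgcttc

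The *Nes* window held the GC box core GGGCGG, read on the other strand as CCGCCC, starting 73 and 62 bases before the start site. Of 32851 RefSeq promoter windows of the same length, 32.7% held this motif. No capital stands in the *Gfap* window, which says only that these letters were not in it. The other motifs searched were the TATA box core TATAAA, present in 12.4% of the windows, the CCAAT box CCAAT in 33.8%, the E-box CANNTG in 66.2%, the STAT-type element TTCNNNGAA in 7.02% and the AP-1 site TGANTCA in 6.75%. The *Vim* window, not printed because a longer transcript model covers it as untranslated sequence, held TATAAA 32 bases and CCAAT 196 and 94 bases before the start. No marked matches overlapped, and a match is a description of letters and not of binding.

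Per length, *Vim* was the most abundant member, with a mean of 511 RPKM over the 12 libraries and rank 54 of 17902 genes. *Nes* followed with 141 RPKM and rank 226, and *Gfap* with 94.2 RPKM and rank 392. *Lmna* stood at 40.4 RPKM, *Lmnb1* at 13.5 RPKM and *Synm* at 3.88 RPKM, the last at rank 9361. Between the lowest and the highest group mean, *Nes* ranged 13.8-fold, *Vim*, *Lmna* and *Gfap* from 3.16-fold to 3.58-fold, *Synm* 2.43-fold and *Lmnb1* 1.54-fold.

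**Figure D1:**
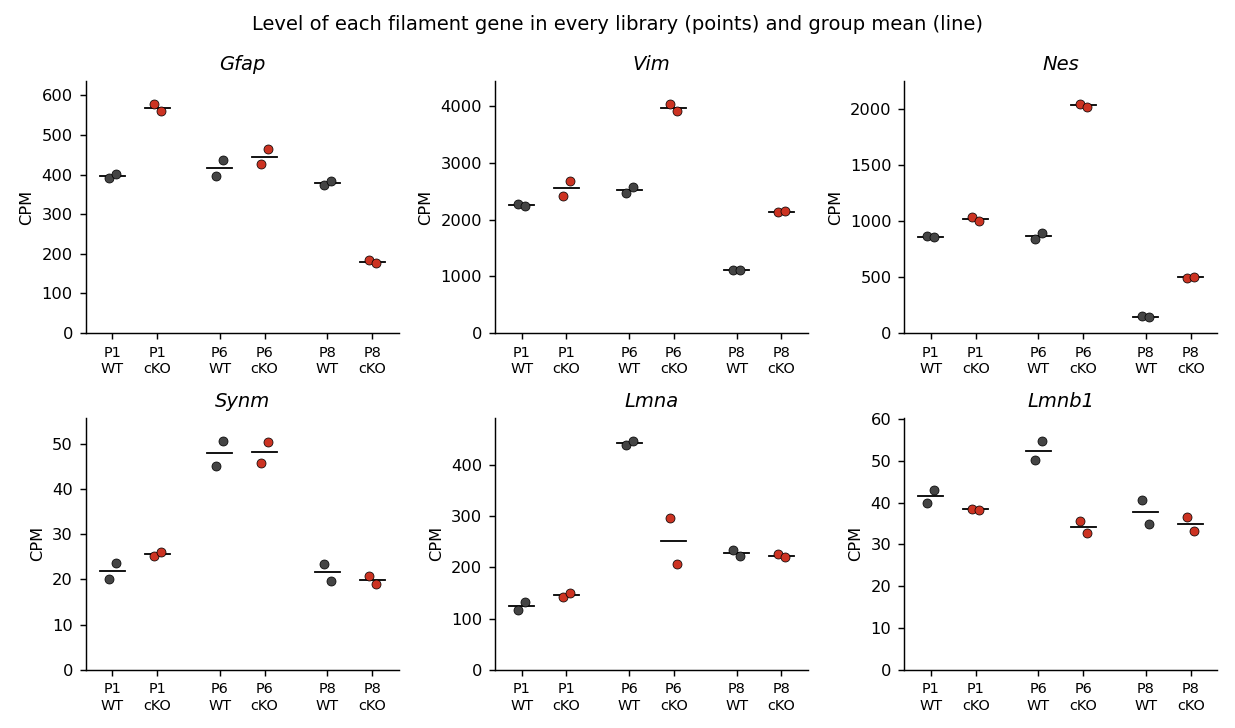
CPM of the 6 filament genes (vertical axis, linear and starting at 0) in the libraries labelled WT (grey) and cKO (red) at P1, P6 and P8, each point a library and each line the mean of 2. *Vim* and *Nes* were highest in cKO at P6 and lowest in WT at P8, whereas *Gfap* was highest in cKO at P1 and lowest in cKO at P8.

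*Gfap* (ENSMUSG00000020932, chr11:102887336-102900912, minus strand, mm10) encodes a filament protein used as a marker of astrocytes. Its counts cannot separate its splice forms, and a noncoding gene on the other strand, Gm26668, spans it without sharing exons. At P1 it was 390 and 402 CPM in the libraries labelled WT and 578 and 559 CPM in those labelled cKO. Both cKO libraries lay above both WT libraries, and *Gfap* was up-regulated 1.44-fold (log2 fold change 0.52, SE 0.06, adjusted p = 0.00049). Adjusted p-values of single genes come from the edgeR quasi-likelihood fit, with Benjamini-Hochberg adjustment over all genes tested. At P6 the values were 396 and 437 CPM in WT and 426 and 465 CPM in cKO. These ranges overlapped, and the log2 fold change of 0.10 (95% confidence interval -0.03 to 0.23) did not pass the test (adjusted p = 0.272). At P8 *Gfap* was 372 and 385 CPM in WT and 184 and 176 CPM in cKO. Here the order was turned around, with *Gfap* down-regulated to 0.476 times the WT level (log2 fold change -1.07, SE 0.06, adjusted p = 9.68e-07). The genotype difference at P8 was lower than that at P1 by 1.60 on the log2 scale (log2 difference -1.60, SE 0.08, adjusted p = 1.01e-06).

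Most other astrocyte markers moved with *Gfap* at P8 but not at P1. At P1 their sum was lower in cKO, at 1881 to 1923 CPM beside 2142 to 2188 CPM in WT, opposite in direction to *Gfap*. The 10 astrocyte markers summed to 1565 to 1934 CPM in WT and 802 to 820 CPM in cKO at P8. Of these, 7 were lower and 1 higher in cKO (70% and 10%, beside 14.8% and 19.6% of all genes). Aquaporin 4 (*Aqp4*), the water channel of astrocyte endfeet, had a log2 fold change of -2.01, and *Gja1*, the gap junction protein connexin 43, one of -2.20. The 2 WT libraries lay far apart for *Gja1* (mean 536, SD 249 CPM), unlike those of cKO (mean 117, SD 4.93 CPM). *Aldh1l1*, a folate enzyme used as an astrocyte marker, was instead higher by 0.49. Microglia markers summed to 2639 to 2758 CPM in WT and 5327 to 5393 CPM in cKO at P8. Of 10, 8 were higher and 1 lower (80% and 10%, beside 19.6% and 14.8% of all genes). The part of either list in the *Gfap* result was not tested.

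*Vim* (ENSMUSG00000026728, chr2:13573927-13582826, plus strand) encodes vimentin, the partner with which glial fibrillary acidic protein copolymerises. At P1 it was 2265 and 2236 CPM in WT and 2415 and 2686 CPM in cKO. Both cKO libraries were higher, by a log2 fold change of 0.18 (SE 0.05, adjusted p = 0.0376). The *Vim* call at P1 was lost with the 4 P1 libraries fitted alone (adjusted p = 0.118), and it was lost without either P1 WT library (0.13 and 0.161), without P1 cKO replicate 2 (0.162, log2 fold change 0.10) and without any 1 of the 4 P8 libraries (0.0577 to 0.0647). At P6 *Vim* was 2470 and 2566 CPM in WT and 4037 and 3906 CPM in cKO. The groups stood well apart, with a 1.58-fold higher level in cKO (log2 fold change 0.66, SE 0.05, adjusted p = 7.87e-06). At P8 it was 1110 and 1111 CPM in WT and 2135 and 2143 CPM in cKO. The difference of 1.93-fold (log2 fold change 0.95, SE 0.05, adjusted p = 4.46e-07) was the larger of the 2 at P6 and P8, by 0.29 on the log2 scale (adjusted p = 0.0112).

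*Nes* (ENSMUSG00000004891, chr3:87971078-87980451, plus strand) encodes nestin, a large filament protein of neural stem cells and reactive astrocytes that needs vimentin to polymerise. At P1 it was 864 and 856 CPM in WT and 1030 and 997 CPM in cKO. *Nes* was up-regulated slightly but in both libraries (log2 fold change 0.24, SE 0.04, adjusted p = 0.00621). At P6 it was 839 and 890 CPM in WT and 2042 and 2015 CPM in cKO, which is 2.35-fold higher (log2 fold change 1.23, SE 0.04, adjusted p = 7.35e-08). At P8 the levels were 152 and 142 CPM in WT and 494 and 504 CPM in cKO. Both genotypes were now low, yet the ratio between them was the widest for any member, at 3.40-fold (log2 fold change 1.76, SE 0.04, adjusted p = 7.03e-09). Each step of this widening passed the test, by 0.99 from P1 to P6 (adjusted p = 3.65e-06) and by 0.53 from P6 to P8 (adjusted p = 0.000175).

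Neural stem cell markers moved in both directions beside *Nes*. Their summed level at P8 was 1014 to 1047 CPM in WT and 281 to 284 CPM in cKO. Of 7, 2 were higher and 2 lower in cKO (28.6% each, beside 19.6% and 14.8% of all genes). Most of the summed level in WT was *Egfr*, at 903 to 930 CPM in WT and 109 to 110 CPM in cKO. The other 6 markers summed to 111 to 116 CPM in WT and 171 to 175 CPM in cKO, the same direction as *Nes*. Without *Egfr* the sum at P6 was likewise higher in cKO, at 348 to 358 CPM beside 261 to 292 CPM in WT. With *Egfr* the P6 sum was lower in cKO, at 432 to 448 CPM beside 590 to 591 CPM in WT. At P1 the sum without *Egfr* was lower in cKO, at 401 to 406 CPM beside 433 to 441 CPM in WT, opposite in direction to *Nes*. The transcription factors *Sox2* and *Pax6* were higher in cKO at P8, with log2 fold changes of 1.35 and 1.69, while the growth factor receptor *Egfr* was lower, with -3.07. The other marker called lower was *Prom1*, with means of 5.31 CPM in WT and 1.67 CPM in cKO. *Sox2*, with means of 26.1 CPM in WT and 66.8 CPM in cKO, made much of the gain in the sum without *Egfr*. Fibroblast markers, from cells that make much vimentin, summed to 26170 to 26290 CPM in WT and 8227 to 8473 CPM in cKO at P8, opposite in direction to *Vim*. At P6 the same 8 genes summed to 6650 to 6716 CPM in WT and 2428 to 2614 CPM in cKO, again opposite, with *Lum* at 0 in both cKO libraries. At P1 fibroblast markers were higher in cKO, at 2424 to 2452 against 384 to 396 CPM, the same direction as *Gfap*, *Vim* and *Nes*. Mural and muscle markers, which include the actin gene *Acta2*, were higher in cKO at each age in summed level (4072 to 4078 CPM at P1, where WT had 2794 to 2803, then 4242 to 4826 beside 3525 to 3643 CPM for P6, and 3326 to 3362 beside 2612 to 2640 CPM for P8). The part of these lists in the *Vim* and *Nes* results was not tested.

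*Synm* (ENSMUSG00000030554, chr7:67730160-67759742, minus strand) shares exonic sequence with *Ttc23* and Gm45102 on the other strand, so its counts are uncertain if strand was not used in counting. At P1 it was 20.0 and 23.7 CPM in WT and 25.3 and 26.0 CPM in cKO. The P6 libraries held 45.0 and 50.7 CPM in WT beside 45.8 and 50.4 CPM in cKO, those of P8 23.3 and 19.7 CPM beside 20.7 and 18.9 CPM. The genotypes overlapped at P6 and P8 and not at P1. None of the 3 differences passed the test, with log2 fold changes of 0.23 (95% confidence interval -0.04 to 0.50), 0.01 (-0.26 to 0.27) and -0.12 (-0.39 to 0.15). *Ttc23* itself had means of 12.1 and 11.9 CPM at P6 in WT and cKO. What stood out for *Synm* was the age label, with P6 above both other ages in either genotype. Each age had its own cultures and the labels name no batch. In every comparison between ages, age therefore cannot be told apart from the set of cultures or libraries.

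*Lmna* (ENSMUSG00000028063, chr3:88480147-88509956, minus strand) encodes lamins A and C, which whole-gene counts do not separate. At P1 it was 117 and 132 CPM in WT and 141 and 150 CPM in cKO, a log2 fold change of 0.23 (95% confidence interval -0.08 to 0.54) that did not pass the test. At P6 it was 440 and 448 CPM in WT and 297 and 206 CPM in cKO. The 2 cKO libraries lay far apart from each other, but both were below WT, and *Lmna* was down-regulated to 0.566 times the WT level (log2 fold change -0.82, SE 0.14, adjusted p = 0.00195). Without cKO replicate 1 the log2 fold change was -1.11, and without cKO replicate 2 it was -0.58. At P8 the values of 234 and 222 CPM in WT and 226 and 221 CPM in cKO overlapped, and the log2 fold change was -0.03 (95% confidence interval -0.34 to 0.28).

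*Lmnb1* (ENSMUSG00000024590, chr18:56707813-56753424, plus strand) encodes lamin B1, which falls in senescent cells and is made in dividing ones. At P1 it was 40.0 and 43.1 CPM in WT and 38.6 and 38.2 CPM in cKO, without passing the test. At P6 it was 50.1 and 54.9 CPM in WT and 35.6 and 32.8 CPM in cKO. The WT libraries were the higher pair, and *Lmnb1* was down-regulated to 0.652 times the WT level (log2 fold change -0.62, SE 0.10, adjusted p = 0.00123). At P8 the values of 40.7 and 34.8 CPM in WT and 36.5 and 33.3 CPM in cKO overlapped.

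The difference of both lamins was thus called at P6 and at neither other age, although the *Lmnb1* means were lower in cKO at P1 and P8 as well (38.4 and 41.5 CPM in cKO and WT at P1, 34.9 and 37.7 CPM at P8). Proliferation markers were lower at P6 as well, summing to 845 to 893 CPM in WT and 617 to 639 CPM in cKO, with 7 of 9 called, all lower, among them *Mki67* (log2 fold change -0.66) and *Top2a* (-0.56). The 7 were 77.8% of the list, beside 12.5% of all genes lower at P6. At P1 3 of the 9 were lower (33.3% beside 2.94%). At P8 3 were higher and 2 lower (33.3% and 22.2%, beside 19.6% and 14.8%). The part of proliferation in the lamin results was not tested. The P6 difference was lower than the P1 difference for *Lmna* by a log2 value of -1.05 (SE 0.19, adjusted p = 0.00583) and for *Lmnb1* by -0.50 (SE 0.13, adjusted p = 0.034). The *Lmnb1* value lost its call without any 1 of the 4 P1 libraries, P6 WT replicate 2 or P6 cKO replicate 2, with adjusted p-values of 0.0523 to 0.108.

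**Figure D2:**
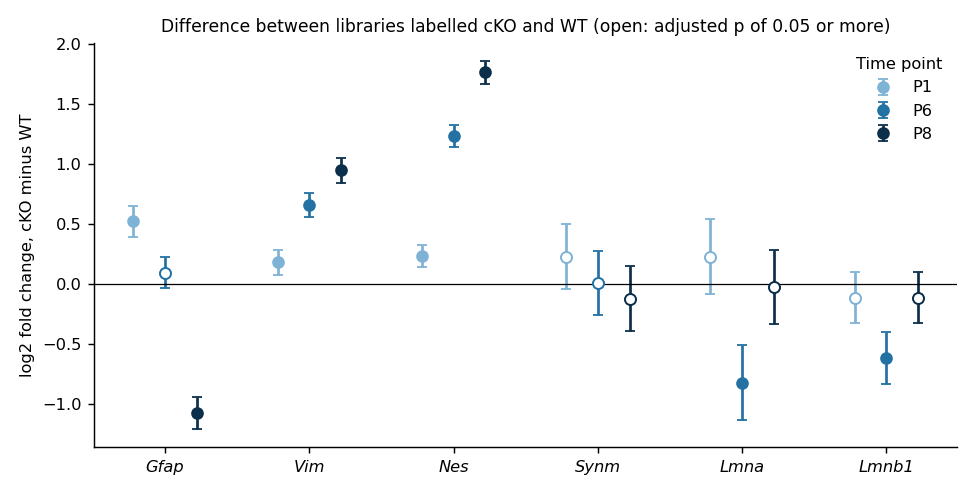
Log2 fold change of libraries labelled cKO over WT (vertical axis) for the 6 genes at P1, P6 and P8, with 95% confidence intervals from the edgeR model over 12 libraries (filled points, adjusted p under 0.05). *Nes* and *Vim* climbed from 0.24 and 0.18 at P1 to 1.76 and 0.95 at P8, *Gfap* went from 0.52 to -1.07, and the lamins were below 0 with a filled point at P6.

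Counted over the members, 3 of 6 (*Gfap*, *Vim*, *Nes*) were called at P1, all higher in cKO, where 6.54% of all 17938 genes tested were higher and 2.94% lower. None of these 3 reached a fold change of 1.5. At P6 2 (*Vim*, *Nes*) were higher and 2 (*Lmna*, *Lmnb1*) lower, beside 13.2% and 12.5% of all genes. At P8 2 (*Vim*, *Nes*) were higher and 1 (*Gfap*) lower, beside 19.6% and 14.8%. The median log2 fold change of the 6 members was 0.23, 0.05 and -0.07 at the 3 ages, and that of all genes 0, 0 and 0.01.

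A change of the genotype difference with age was called for 5 of 6 members between P1 and P6 and between P6 and P8, and for 3 of 6 between P1 and P8, where 15.3%, 21.5% and 25.7% of all genes were called in either direction. These comparisons share libraries and are not separate evidence. *Synm* was called in none of the 3. The count for P6 to P8 was 3 without P8 WT replicate 2 or without P8 cKO replicate 1. Both omissions lost *Lmna* (adjusted p = 0.0608 and 0.0538) and *Lmnb1* (0.0848 and 0.0941). The *Lmnb1* call was lost as well without P6 WT replicate 2 (0.0797) or P6 cKO replicate 2 (0.0784) and with the compared groups fitted alone (0.0609).

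Within WT, 4 of 6 members rose from P1 to P6, beside 39.9% of all genes called in either direction. *Lmna* rose 3.57-fold (log2 fold change 1.84, SE 0.14, adjusted p = 6.94e-06) and *Synm* 2.19-fold (1.13, SE 0.12, adjusted p = 6.27e-05). Smaller rises of *Lmnb1* (0.34) and *Vim* (0.16) lost their calls without P1 WT replicate 1 (adjusted p = 0.114 and 0.0591) or P6 WT replicate 2 (0.111 and 0.095), which left 2 members called, and *Vim* also without P1 WT replicate 2 (0.0823). *Nes* and *Gfap* had log2 fold changes of 0.01 and 0.07 and were not called.

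From P6 to P8 in WT, 5 of 6 members fell, beside 35.3% of all genes called in either direction. *Nes* dropped to 0.170 times its P6 level (log2 fold change -2.56, SE 0.04, adjusted p = 4.05e-09). *Vim* (-1.18), *Synm* (-1.15), *Lmna* (-0.96) and *Lmnb1* (-0.48) fell as well. *Gfap* was the member not called (log2 fold change -0.14, adjusted p = 0.0918), although without P6 WT replicate 1 it was (-0.21, adjusted p = 0.0293). From P1 to P8 in WT 3 of 6 were called, beside 47% of all genes called in either direction, with *Nes* at -2.55, *Vim* at -1.02 and *Lmna* at 0.87. *Gfap* in WT thus stayed between 372 and 437 CPM in 6 libraries, with a log2 fold change from P1 to P8 of -0.07 (95% confidence interval -0.19 to 0.06), while *Nes* and *Vim* fell.

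In cKO, 4 members rose and 1 fell from P1 to P6, beside 38.5% of all genes called in either direction. *Nes* doubled (log2 fold change 1.00, SE 0.04, adjusted p = 1.86e-07), *Synm* (0.91), *Lmna* (0.79) and *Vim* (0.64) rose, and *Gfap* fell (-0.35, SE 0.06, adjusted p = 0.00109). Without P6 cKO replicate 1 the rise of *Lmna* was 0.50. *Lmnb1* had a log2 fold change of -0.17 and was not called.

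From P6 to P8 in cKO 4 of 6 fell, beside 39.1% of all genes called in either direction. These were *Nes* (-2.02, SE 0.04), *Gfap* (-1.31, SE 0.06), *Synm* (-1.28, SE 0.12) and *Vim* (-0.89, SE 0.05). *Lmna* was not called (-0.17, adjusted p = 0.373), but without P6 cKO replicate 2 it was (-0.41, adjusted p = 0.00301). From P1 to P8 in cKO 1 rose and 4 fell, beside 35.6% of all genes called in either direction. *Gfap* fell by 1.66 on the log2 scale (SE 0.06, adjusted p = 9.31e-08), *Nes* by 1.02, *Synm* by 0.37 and *Vim* by 0.25, and *Lmna* rose by 0.62. The fall of *Synm* (adjusted p = 0.0362) lost its call without any 1 of the 4 libraries compared (0.0682 to 0.183).

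The make-up of the cytoplasmic filament transcripts followed from these levels. *Gfap* was 13.1% and 13.5% of the summed RPKM of *Gfap*, *Vim*, *Nes* and *Synm* in WT at P1, then 12.5% and 13.1% for P6 cultures, then 25.3% and 26.0% for P8 cultures. In cKO it was 16.9% and 15.5% at P1, then 7.92% and 8.78%, then 7.60% and 7.27%. The *Gfap* share thus lay above WT in cKO at P1 and below it at P6 and P8, with no overlap at any age. *Nes* made up 17.4% and 17.5% in WT and 24.9% and 25.1% in cKO at P6, then 6.78% and 6.33% in WT and 13.4% and 13.7% in cKO at P8. *Vim* was the largest component everywhere, with 62.9% to 78.7%. The summed RPKM was highest in cKO at P6, at 1276 and 1254, and lowest in WT at P8, at 349 and 350.

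The ratio of *Gfap* to *Vim* per length was 0.194 and 0.202 in WT and 0.269 and 0.234 in cKO at P1. At P6 WT had 0.180 and 0.192, and cKO 0.119 and 0.134. The P8 values were 0.377 and 0.389 in WT but 0.0968 and 0.0924 in cKO. A library's ratio was above WT in cKO at P1 and below at the other ages, so that the log2 difference was 0.34, -0.56 and -2.02 in turn. Averaged over the 3 ages it was -0.75, which did not pass a two-sided exact permutation test within ages (p = 0.0926, adjusted p = 0.185 over 2 ratios, smallest possible p 0.00926). That smallest p needs the same direction at every age. With P1 in the opposite direction the differences partly cancel, so this test of the average cannot decide about any single age. The ratio of *Lmna* to *Lmnb1* ranged from 1.48 to 1.55 in WT and 1.86 to 1.99 in cKO at P1. The same ranges were 4.15 to 4.46 and 3.19 to 4.23 for P6, then 2.91 to 3.24 and 3.15 to 3.36 for P8. Its mean log2 difference of 0.07 did not pass the same exact test (p = 0.583, adjusted p = 0.583). P6 was the age with the highest lamin ratio in either genotype, though the cKO libraries at P6 ranged down into the P8 values.

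**Figure D3:**
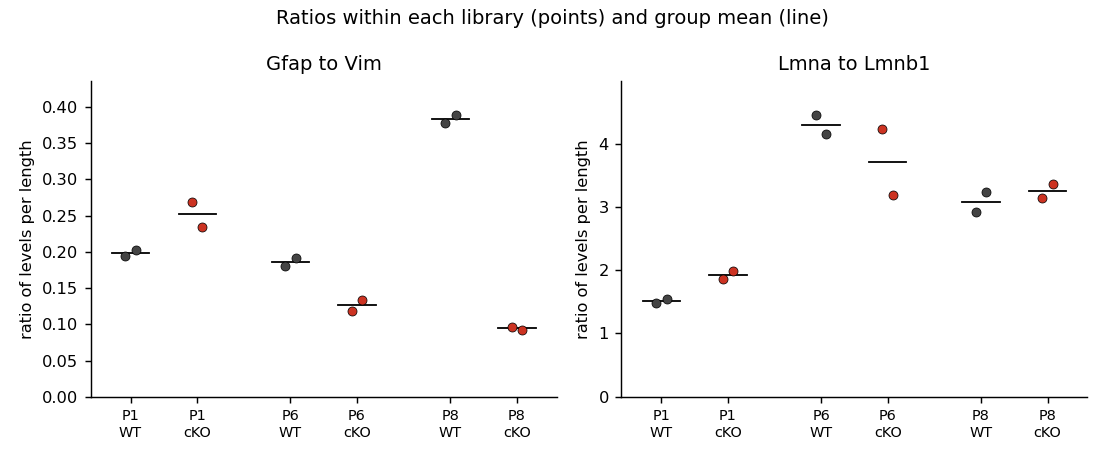
Ratio of *Gfap* to *Vim* and of *Lmna* to *Lmnb1*, each as RPKM over RPKM (vertical axes, starting at 0), in the libraries labelled WT (grey) and cKO (red), with the mean of 2 as a line. The first ratio reached 0.377 and 0.389 in WT at P8 and 0.0968 and 0.0924 in cKO, while the second overlapped between genotypes at P6 and P8.

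Over the 12 libraries *Vim* and *Nes* varied together (Pearson r = 0.98 of log2 CPM, Spearman rank correlation 0.92). For *Gfap* the measures differed, with r = 0.24 and a rank correlation of 0.76 with *Vim*, and 0.35 and 0.82 with *Nes*. *Lmna* and *Lmnb1* had r = 0.46 and a rank correlation of 0.21. Points of the same group and the same age share their source, so these values describe the 12 libraries only. Among 15145 genes of at least 1 CPM on average, those most like *Gfap* by Pearson r were *Tjp1*, a scaffold of tight junctions (r = 0.97), *Rapgef4* (0.95) and *Chst11*, a chondroitin sulfotransferase (0.95), with rank correlations of 0.89, 0.90 and 0.66. *Tjp1* had means of 302 and 392 CPM in WT and cKO from P1, then 289 and 200.3 CPM from P8, the same turn of direction as *Gfap*. Those most like *Vim* were *Dlc1*, *Tob1* and *Gprc5a* (r = 0.99 for each). *Nes* was most like the kinesin *Kifc3* (r = 0.997), the growth factor *Pdgfb* (0.99) and the neuronal kinesin *Kif1a* (0.99). *Synm* was nearest to the immediate-early gene *Fosb*, Gm27927 and *Sertad1* (0.97 each), *Lmna* to the transcription factor *Klf4* (0.97), *Zadh2* (0.96) and *Dnajc10* (0.96), and *Lmnb1* to *Pym1* (0.94), *Cstf2t* (0.93) and the spindle protein *Tpx2* (0.92). Means of *Fosb* in WT and cKO were 2.8 and 4.2 CPM at P1, 215 and 124 CPM at P6, and 2.4 and 1.9 CPM at P8.

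Genes that work with the filaments were counted from lists drawn up for this comparison. Of 8 cytolinkers measured, which tie filaments to actin, microtubules and membranes, 1 was higher in cKO at P1, 5 higher and 1 lower at P6, and 5 higher at P8. The 5 higher were 62.5% of the list, at P6 beside 13.2% and at P8 beside 19.6% of all genes, and the 1 gene of P1 was 12.5% beside 6.54%. Periplakin, *Ppl*, rose at each age, with group means in WT and cKO of 8.60 and 17.9 CPM for P1, 7.43 and 59.8 CPM for P6, then 0.950 and 15.0 CPM for P8 (log2 fold changes 1.05, 3.01 and 3.99). Its level was low beside the spectraplakins *Macf1* and *Dst*, which were higher at P6 (0.81 and 0.69) and P8 (0.43 and 0.50). *Plec*, plectin, the general linker of vimentin, had log2 fold changes of -0.11, -0.33 and 0.14 and was not called. Desmoplakin, *Dsp*, fell at P6 (-2.33). The list median was 0.73 at P6 and 0.42 at P8, beside 0 and 0.01 for all genes.

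Among 12 filament chaperones and kinases 2 were higher at P1, 5 higher and 2 lower at P6, and 5 higher at P8. The 5 higher were 41.7% of the list, where 13.2% of all genes were higher at P6 and 19.6% at P8. The 2 lower at P6 were 16.7%, near the 12.5% of all genes, and the 2 higher at P1 also 16.7%, beside 6.54%. The list median was -0.06, 0.19 and 0.08 at the 3 ages. The small heat shock protein *Hspb1* rose at each age, by 1.13, 0.79 and 0.92, with means of 13.9 and 30.5 CPM at P1 in WT and cKO. *Rock2*, a kinase that phosphorylates vimentin and glial fibrillary acidic protein, also rose at each age (0.31, 0.78 and 0.75; named after its values were seen). *Cryab*, the crystallin chaperone of glial filaments, was at 0.72, 0.92 and 0.05 without passing the test. *Hspa8*, the constitutive heat shock protein and the most abundant of the list per length (274 RPKM), was higher at P6 (0.41) and had log2 fold changes of -0.16 and -0.01 at P1 and P8. The mitotic kinase *Aurkb* was lower at P6 (-0.93).

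Of 18 partners of the lamins in the nuclear envelope, 0 were called at P1 by edgeR (1 had an unadjusted p under 0.05 and 1 was higher by DESeq2), 2 were higher and 2 lower at P6, and 1 was higher and 3 lower at P8. These shares, 11.1% either way at P6 and 5.56% higher and 16.7% lower at P8, were near or below those of all genes (13.2% and 12.5%, then 19.6% and 14.8%), and the list median was -0.01 and -0.04. The linker *Syne2* fell at P6 (-1.08), and the lamin B receptor *Lbr* fell at P6 (-0.32) and P8 (-0.81). *Tor1a* rose at P6 (0.32) and *Lemd2* at P8 (0.26). The 3 most abundant genes per length were not called at any age. These were *Emd*, emerin (0.15, 0.03 and -0.12), *Banf1*, the barrier-to-autointegration factor (0.44, -0.12 and 0.09), and *Tor1aip1*, a lamina-associated protein (-0.59, 0.07 and 1.35), whose libraries lay far apart at P1 in cKO (225 and 71.0 CPM) and at P8 in WT (164 and 48.2 CPM).

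The list of inputs to *Gfap* transcription mixed activators with repressors such as *Dnmt1* and *Olig2*, so its counts have no single direction for *Gfap*. Of 22 genes measured, 1 was higher in cKO at P1, 3 higher and 6 lower at P6, and 4 higher and 6 lower at P8. The shares higher, 4.55%, 13.6% and 18.2%, were near those of all genes (6.54%, 13.2% and 19.6%), and the shares lower were 27.3% at P6 and at P8, beside 12.5% and 14.8%. The list median was 0.04, -0.06 and -0.14. The cytokine receptor subunit *Il6st*, which signals to STAT3, was lower at P6 (-0.93) and P8 (-0.77), *Osmr* likewise (-1.31 and -0.23), and *Lifr* at P8 (-0.99). *Stat3* was lower at P6 (-0.34) and had a log2 fold change of -0.11 at P8 that was not called. The kinase *Jak1* was lower at P6 (-0.19) and higher at P8 (0.19). *Nfix* of the nuclear factor I family was higher at P1 (0.32) and P6 (0.71), and the BMP receptor *Bmpr1b* at P6 (1.54) and P8 (0.69).

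Other filament genes were sparse, with 8 of 17 in the table. At P1 2 were higher, at P6 2 higher and 2 lower, and at P8 2 higher and 1 lower, each gene being 12.5% of those measured. The share higher was 25% at each age, beside 6.54%, 13.2% and 19.6% of all genes in turn. The shares lower were 25% at P6 and 12.5% at P8, beside 12.5% and 14.8%. The P8 shares were thus near those of all genes. *Sync*, syncoilin, had means of 14.7 and 33.4 CPM at P6 and 4.86 and 11.2 CPM at P8 in WT and cKO and rose at both ages (1.18 and 1.20), whereas *Lmnb2*, the other B-type lamin, fell at P6 (-0.63) as *Lmnb1* did. Keratin 19, *Krt19*, an epithelial filament, had means in WT and cKO of 0.0860 and 1.44 CPM for P1, 13.9 and 2.73 CPM for P6, then 20.4 and 9.53 CPM for P8, higher in cKO at P1 (3.87) and lower at P6 (-2.35) and P8 (-1.10). *Bfsp2*, a lens filament gene, was higher at P1 (3.15) and P8 (2.33) but near the floor in WT. Its WT libraries held 33 and 12 counts at P1 and 4 and 34 counts at P8.

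**Figure D4:**
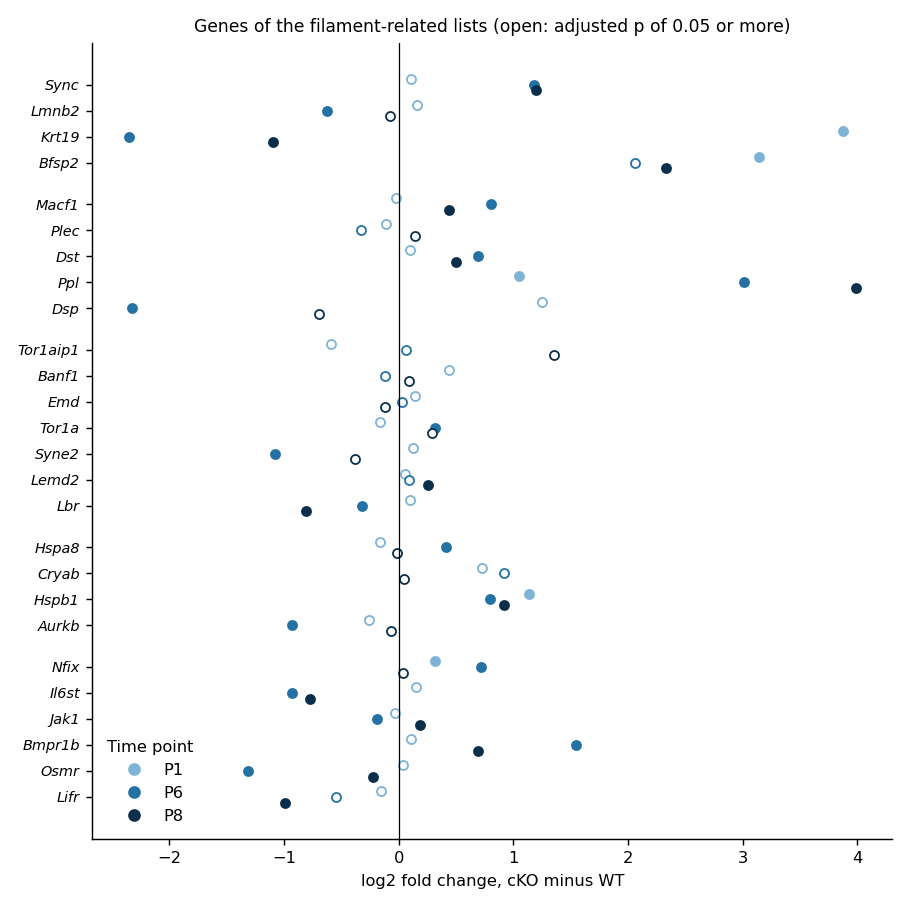
Log2 fold change of libraries labelled cKO over WT (horizontal axis) at P1, P6 and P8 for named genes of the lists, from top to bottom other filament genes, cytolinkers, nuclear envelope partners, chaperones and kinases, and *Gfap* transcription inputs (filled points, adjusted p under 0.05). *Ppl* and *Hspb1* were above 0 with filled points at all 3 ages, and *Krt19* went from 3.87 at P1 to -2.35 at P6.

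The remaining marker counts are given beside all genes, of which 6.54% were higher and 2.94% lower at P1. At P6 these shares were 13.2% and 12.5%, and at P8 19.6% and 14.8%. Oligodendrocyte lineage markers summed to between 172 and 266 CPM over all libraries. Of 8, 1 was higher at P1, 1 higher and 3 lower at P6, and 2 higher and 3 lower at P8. Their shares higher, 12.5% at P6 and 25% at P8, were near those of all genes, and 37.5% were lower at both ages. The 4 neuron markers measured summed to 400 to 403 CPM in cKO and 183 to 219 CPM in WT at P6 and to 264 to 276 and 120 to 140 CPM at P8, with 3 higher at either age and 1 at P1. The 4 endothelial markers summed to 23.8 to 161 CPM, with 2 higher in cKO at P1, 3 lower at P6, and 1 higher and 2 lower at P8. In the astrocyte list 1 was higher and 2 lower at P1 and 1 higher and 3 lower at P6. In the microglia list 6 were lower at P1, and 2 were higher and 2 lower at P6. Of the fibroblast list 6 were higher at P1, and 7 lower at P6 and at P8. Of 7 mural and muscle markers 5 were higher at P1, 4 higher and 3 lower at P6, and 4 higher and 2 lower at P8. Of 7 neural stem cell markers 1 was higher at P1, and 3 higher and 1 lower at P6.

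**Figure D5:**
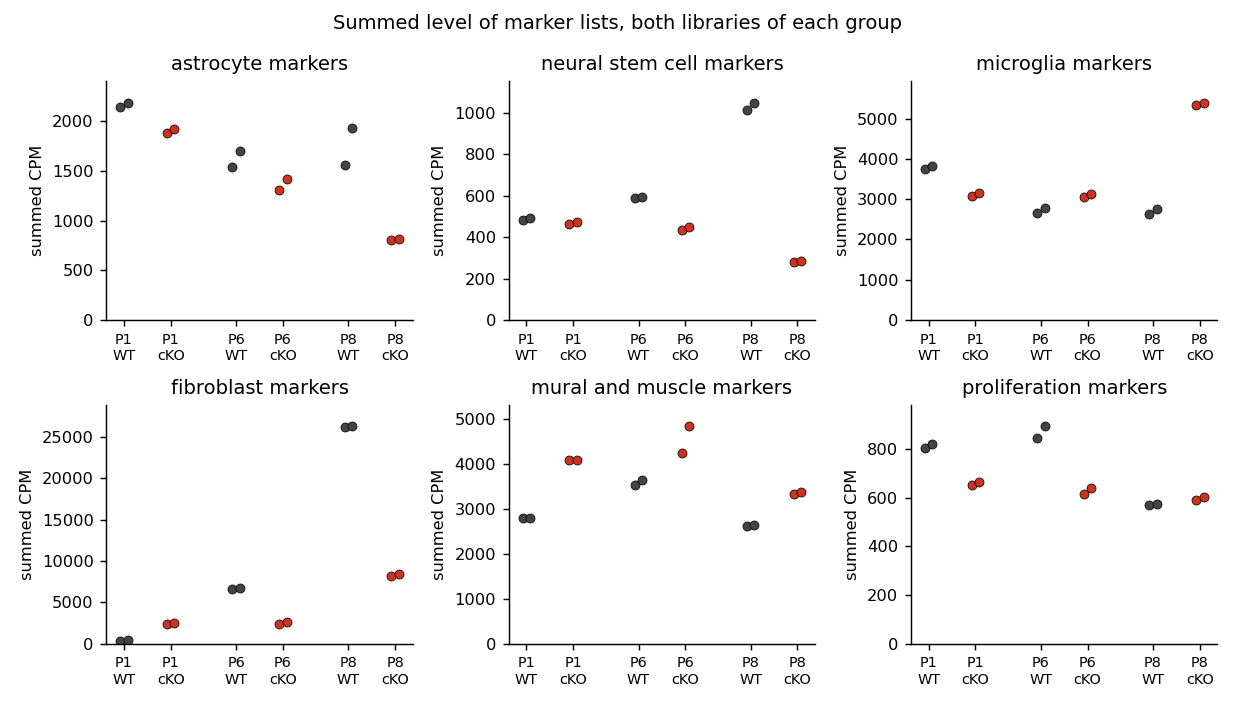
Summed CPM of 6 marker lists (vertical axes, starting at 0) in both libraries of each group, WT in grey and cKO in red. At P8 astrocyte markers summed to 802 to 820 CPM in cKO and 1565 to 1934 in WT, microglia markers to 5327 to 5393 and 2639 to 2758, and fibroblast markers to 8227 to 8473 and 26170 to 26290.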

How the data were processed

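Raw gene counts deposited by the authors were used for 12 libraries. Reads had been mapped with HISAT2 to mm10 per the submitters' processing notes. For the counting program and its use of strand, nothing is stated in the labels or the methods read here. Counts were filtered with filterByExpr, which left 17938 of 18903 genes, scaled by TMM and fitted with edgeR 4.0.16 (R 4.3.3), quasi-likelihood, with 1 mean per group. Genes were called at a Benjamini-Hochberg adjusted p under 0.05 over all genes tested. RPKM used exonic lengths from GENCODE, and *Zmynd8* was read as the targeted gene. Ratios were compared by exact permutation within ages (216 arrangements). Alternatives were DESeq2 1.42.0, its size factors, no filter, the compared groups alone, a replicate block, a fold change of at least 1.5 (the study's condition), and each library left out. The fit was tested on simulated data.

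The members and the lists were chosen with earlier results of these data known. All members were described. From the lists, the 3 genes highest per length and the largest called rise and fall at each age (mean of at least 1 CPM) were named, as were the 3 genes most correlated with each member. Other genes, among them marker genes and *Rock2*, *Stat3*, *Il6st* beyond its level, *Lmnb2* and *Ttc23*, were picked as examples after their values were seen.

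Replicates differed by more than sampling noise (chi-square per degree of freedom 30.5 to 47.1). With 2 libraries per group, the spread is estimated across all groups, and SDs of single groups are imprecise.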

Additional observations from a re-analysis of the deposited data

Results flagged for a closer look

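The genotype difference, cKO minus WT on the log2 scale, was itself different between ages for these genes, by the interaction terms of the edgeR model.

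For *Nes* it was higher at P6 than at P1 by 0.99, at P8 than at P6 by 0.53 and at P8 than at P1 by 1.53, with both cKO libraries above both WT libraries at each age. For *Vim* the same terms were 0.48, 0.29 and 0.77. For *Gfap* they were -0.43, -1.17 and -1.60, and the difference went from above 0 at P1 to below 0 at P8. For *Lmna* the terms were -1.05 from P1 to P6 and 0.79 from P6 to P8, and for *Lmnb1* -0.50 and 0.51. The 3 terms of a gene share libraries, so any 1 follows from the other 2. Groups of 2 libraries were too small to look for libraries far from the others.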

How the results depend on the processing

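Of 72 member results (6 genes in 12 comparisons), 49 were called, and 0 of these changed direction in any of 18 alternatives each, while 33 also kept their call in all 18 and 42 in all but the fold change condition. With a fold change of at least 1.5, 0 members were called at P1, 2 from P1 to P6 in WT, 3 from P1 to P8 in cKO, and 2 for the change of the genotype difference from P1 to P6 and 2 from P6 to P8. Leaving out 1 library gave 2 to 4 members called from P1 to P6 in WT and 3 to 5 for the change from P6 to P8. The mean log2 difference of the *Lmna* to *Lmnb1* ratio ranged from -0.0018 (without P6 cKO replicate 1) to 0.134 over these omissions. Values that changed sign were not called. *Synm* from P1 to P8 in WT was 0.00072 with the compared groups alone, and *Lmnb1* from P1 to P8 in its genotype difference was -0.018 with DESeq2 size factors, -0.017 with DESeq2 and -0.020 with the compared groups alone. Leaving out 1 library, other uncalled log2 values crossed 0: cKO minus WT for *Synm* at P6 (-0.0755 to 0.0899) and P8 (-0.238 to 0.0067), for *Lmna* at P8 (-0.0644 to 0.00904) and *Lmnb1* at P8 (-0.221 to 0.00499), *Nes* from P1 to P6 in WT (-0.0344 to 0.0484), *Synm* from P1 to P8 in WT (-0.15 to 0.11), *Lmna* and *Lmnb1* from P6 to P8 in cKO (-0.41 to 0.12 and -0.0362 to 0.0934), and the *Lmnb1* change from P1 to P8 (-0.11 to 0.12). The cause was not tested. The replicate block changed 1 call, *Vim* at P1 (0.18, adjusted p = 0.0513). Replicate differences correlated at only -0.05 to 0.10 between groups, so equal numbers do not mark pairs.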
